A study of Mus musculus with 2 samples.

Results

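Cd163 and Lrp1, the genes of receptors for hemoglobin and for heme bound to hemopexin, were examined in single-nucleus ATAC-seq of mouse liver. They are 2 of the 21887 protein-coding genes counted, and they were chosen by name, not by a measured value. In ATAC-seq a transposase inserts adapters into open DNA, so fragments mark accessible chromatin and not RNA or protein. The samples were livers of untreated male littermates aged 8 to 10 weeks, 1 with the genotype Spta sph/sph and 1 with Spta wt/wt, and Spta encodes the erythroid spectrin alpha chain. Cells other than hepatocytes were prepared from the digested livers and those with F4/80, a macrophage surface protein, were enriched on antibody beads, and each sample gave 1 library. The barcodes end in 1 or 2, and nothing in the labels or files used here ties a suffix to a genotype. Each value belongs to library 1 or library 2, genotypes are not compared, and no test across samples was possible. Ranges in brackets are 95% intervals of counting error alone.

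CD163 is a scavenger receptor of resident macrophages with cysteine-rich SRCR domains. It binds hemoglobin and carries it into the cell, where heme is released and degraded. LRP1, also called CD91, is a large endocytic receptor of the LDL receptor family. It clears hemopexin loaded with heme and many other ligands, such as protease complexes and lipoprotein remnants, and it is known from hepatocytes, macrophages and mesenchymal cells. Both receptors remove products of red cell breakdown in the liver.

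In GRCm38, Cd163 lies on the + strand of chromosome 6 from 124304636 to 124330529 and spans 25.9 kb. Lrp1 lies on the - strand of chromosome 10 from 127538157 to 127621148 and spans 83.0 kb. The RefSeq promoter windows of GRCm38.p6 are printed 5′ to 3′ along each gene. The Cd163 window is chr6:124304401-124304700 on the + strand, and the Lrp1 window is chr10:127621099-127621398 on the - strand. Capitals mark motif matches.
Cd163: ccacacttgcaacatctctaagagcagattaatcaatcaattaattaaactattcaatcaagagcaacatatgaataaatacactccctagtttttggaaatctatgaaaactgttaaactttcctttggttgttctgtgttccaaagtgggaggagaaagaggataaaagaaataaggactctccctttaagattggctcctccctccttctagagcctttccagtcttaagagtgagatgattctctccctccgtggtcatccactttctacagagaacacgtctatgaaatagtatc
Lrp1: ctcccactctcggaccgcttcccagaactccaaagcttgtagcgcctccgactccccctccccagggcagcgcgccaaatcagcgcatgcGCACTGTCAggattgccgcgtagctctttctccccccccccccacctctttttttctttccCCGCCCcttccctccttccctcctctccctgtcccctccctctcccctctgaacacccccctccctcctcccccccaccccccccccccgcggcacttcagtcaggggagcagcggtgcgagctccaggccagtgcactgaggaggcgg
The Cd163 window had a GC content of 38.0% and 2 CpG dinucleotides, the GC content above that of 7.04% and the CpG number above that of 14.1% of the 32851 windows in the table. The Lrp1 window had a GC content of 67.7%, above that of 86.8% of windows, and 16 CpG dinucleotides, more than 67.0% of windows. Both strands were searched for 8 short motifs: the PU.1 core GAGGAA, AP-1 TGANTCA, the SP and KLF box GGGCGG, the E-box CACGTG, the C/EBP site TTGCNNAA, the TATA box TATAAA, the MAF half-site TGCTGA and the antioxidant response core TGACNNNGC. The Lrp1 window held 1 SP and KLF box, found in 35.7% of all windows, and 1 antioxidant response core, found in 12.4%, both on the strand opposite to the gene. None of the 8 motifs was found in these letters of Cd163. The matches do not overlap, and they describe the sequence only.

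Library 1 held 11401694 fragments with 637 deposited cell calls, and library 2 held 21656110 fragments with 575. Called cells had medians of 13220 and 13186 fragments, of which a median of 72.1% in library 1 and 53.7% in library 2 lay in peaks. The libraries shared 0 barcode sequences among called cells. After filters on fragments in peaks, 609 and 562 cells were clustered without the bins of either locus. Kupffer-like cells, named from markers of the resident liver macrophage, numbered 330 in library 1 and 184 in library 2, endothelial-like cells 122 and 121, stellate or fibroblast-like cells 66 and 24, and hepatocyte-like cells 25 and 1. Unnamed clusters held 10.8% of library 1 and 41.3% of library 2. Class sizes moved with the settings tried: with at least 3000 fragments in peaks the unnamed shares were 7.79% and 15.25%, and over all settings library 2 had between 22 and 256 Kupffer-like cells and between 1 and 121 endothelial-like cells. Different clusters held most Kupffer-like cells of each library: clusters 2 and 5 held 204 and 126 cells of library 1, and cluster 3 held 170 cells of library 2. None of the 8 Kupffer markers (Clec4f, Vsig4, Timd4, Adgre1, Folr2, Csf1r, C1qa and C1qb) was at 0 in Kupffer-like cells of either library. None was at 0 in endothelial-like cells of either library either, and the clusters were named from these same markers. The absence of zeros therefore cannot test the class names.

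Cd163 was open in Kupffer-like cells and near or under the level of evenly spread fragments in endothelial-like and stellate or fibroblast-like cells. Its gene body with 2 kb on both sides held 99.0 CPM (fragments per 1000000 fragments of the class; 91.0 to 107) in Kupffer-like cells of library 1, from 564 fragments, and 33.0 CPM (26.4 to 40.7) in those of library 2, from 87 fragments. Hepatocyte-like cells of library 1 had 15.8 CPM (6.34 to 32.5), with all 7 fragments in 1 cell. Stellate or fibroblast-like cells had 3.85 and 7.08 CPM in libraries 1 and 2, from 3 and 4 fragments. Endothelial-like cells had 5.94 CPM (2.72 to 11.3) and 8.57 CPM (4.90 to 13.9), from 9 and 16 fragments. Fragments spread evenly over the genome would give 11.0 CPM in this window. The levels of endothelial-like and stellate or fibroblast-like cells could not be told apart within these intervals.

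Kupffer-like clusters had a higher Cd163 level than endothelial-like clusters in both libraries, although in library 2 not under every way of classing the cells. The log2 ratio of Kupffer-like over endothelial-like cells, relative to the median gene, was 4.00 (3.14 to 5.21) in library 1, rank 28 of 15047 genes with at least 50 fragments. It was 1.91 (1.17 to 2.82) in library 2, rank 397 of 13517 genes. Genes higher by a fold of 2 or more made up 12.4% of genes in library 1 and 10.3% in library 2, and genes lower by that fold 9.4% and 10.8%. When each cell was classed by its own marker fragments, which left 22 Kupffer-like cells in library 2, the ratio there was 0.80 (-0.82 to 2.22), and a difference was not detectable. Against stellate or fibroblast-like cells, the Cd163 ratios were 4.38 (3.05 to 6.89) and 1.91 (0.66 to 3.98). In those comparisons 13.2% and 11.4% of genes were higher by a fold of 2 or more.

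Lrp1 was open in Kupffer-like, stellate or fibroblast-like and hepatocyte-like cells and low in endothelial-like cells. In Kupffer-like cells library 1 had 513 CPM (495 to 532; 2924 fragments) and library 2 had 423 CPM (398 to 448; 1115 fragments). Stellate or fibroblast-like cells had 338 CPM (299 to 382) and 219 CPM (182 to 262). Hepatocyte-like cells of library 1 had 268 CPM (222 to 321). Endothelial-like cells had 65.3 CPM (53.1 to 79.5) and 63.8 CPM (52.8 to 76.3), above the 32.0 CPM of an even spread. In library 1 the order was thus Kupffer-like, stellate or fibroblast-like, hepatocyte-like and endothelial-like, and the intervals of stellate or fibroblast-like and hepatocyte-like cells overlapped.

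The log2 ratio of Lrp1 in Kupffer-like over endothelial-like cells was 2.98 (2.70 to 3.29), rank 176, in library 1. Library 2 gave 2.73 (2.46 to 3.02), rank 128. Stellate or fibroblast-like cells exceeded endothelial-like cells by 2.48 (2.15 to 2.84) and 1.92 (1.54 to 2.29) on the log2 scale, where 8.24% and 9.34% of genes were higher by a fold of 2 or more. For hepatocyte-like over endothelial-like cells of library 1 the ratio was 2.35 (1.95 to 2.75), against a background of 14.0% of genes. Kupffer-like over stellate or fibroblast-like cells had ratios of 0.52 (0.34 to 0.71) and 0.79 (0.53 to 1.08), both under a fold of 2. Per kilobase of window, Lrp1 had 5.90 and 4.86 CPM in Kupffer-like cells of libraries 1 and 2, against 3.31 and 1.10 CPM for Cd163.

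**Figure D1:**
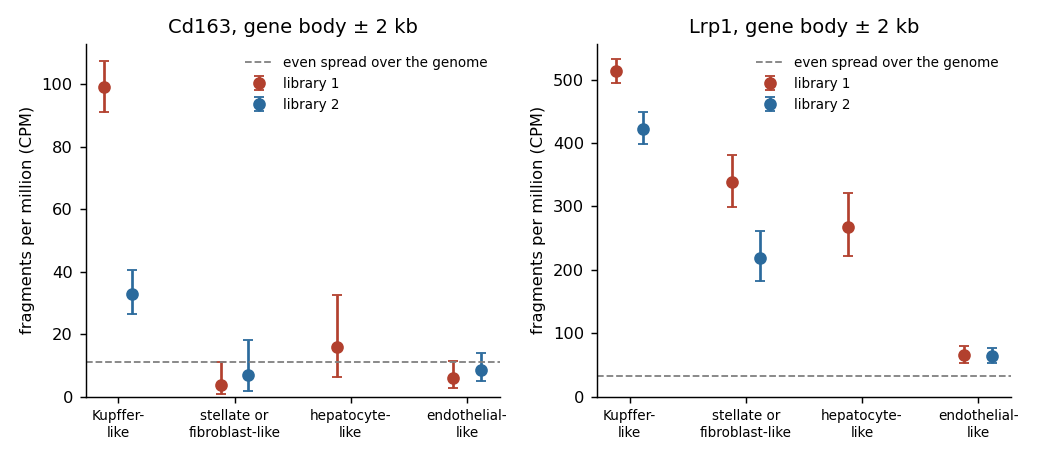
Fragments per 1000000 fragments (CPM) in the gene body with 2 kb on both sides of Cd163 (left) and Lrp1 (right), by cell class and library, with exact Poisson 95% intervals; the dashed line is the level of evenly spread fragments. Among the named classes present in both libraries, Cd163 stands above that line in Kupffer-like cells alone. Lrp1 stands above it in every class drawn and lowest in endothelial-like cells.

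In CPM, the 2 unnamed clusters lay between endothelial-like and Kupffer-like cells for both receptors. Cluster 4, with 18 cells of library 1 and 150 of library 2 and a median of 33.3% of fragments in peaks, had 17.1 and 22.1 CPM of Cd163 and 191 and 166 CPM of Lrp1. Cluster 6, with 48 and 82 cells, scored for dendritic and monocyte markers about alike and had 21.6 and 19.5 CPM of Cd163 and 266 and 197 CPM of Lrp1. In library 1, the deep cluster 2 and the shallower cluster 5 of Kupffer-like cells had nearly equal levels, with 99.2 and 97.9 CPM of Cd163 and 507 and 539 CPM of Lrp1.

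A Cd163 fragment was found in 64.2% (58.8 to 69.4%) of Kupffer-like cells of library 1 and in 27.7% (21.4 to 34.8%) of those of library 2, at median depths of 16108.5 and 12472 fragments. Endothelial-like cells, taken here as the class that should lack Cd163, gave 4.92% (1.83 to 10.4%) and 6.61% (2.90 to 12.6%), at depths of 10601 and 12385. In library 2 the unnamed clusters 4 and 6 gave 30.7% (23.4 to 38.7%) and 22.0% (13.6 to 32.5%), at depths of 14840 and 18109.5. Their intervals overlapped that of Kupffer-like cells, so cells with a Cd163 fragment were not confined to the Kupffer-like class there. The Cd163 levels of these clusters were 22.1 CPM (18.3 to 26.6) and 19.5 CPM (13.7 to 27.1). Both intervals overlapped that of library 2 barcodes not called cells, 16.8 CPM (14.3 to 19.6). After thinning each cell to 5000 fragments, which left out 30 and 20 Kupffer-like cells, the shares in Kupffer-like cells were 36.0% (30.6 to 41.7%) and 14.6% (9.61 to 21.0%). The thinned endothelial-like shares were 3.09% and 2.68%, and those of clusters 4 and 6 in library 2 were 11.5% and 7.04%. Within the whole region of 25 kb on both sides, 72.7% and 38.6% of Kupffer-like cells held a fragment, against 9.02% and 11.6% of endothelial-like cells.

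An Lrp1 fragment was found in 95.5% (92.6 to 97.4%) of Kupffer-like cells of library 1 and 90.8% (85.6 to 94.5%) of library 2. Stellate or fibroblast-like cells gave 83.3% in both libraries, and hepatocyte-like cells 100% (25 of 25; 86.3 to 100%). Endothelial-like cells gave 38.5% (29.9 to 47.8%) and 34.7% (26.3 to 43.9%). Thinned to 5000 fragments, the shares were 91.0% and 86.6% in Kupffer-like cells, 64.0% and 63.6% in stellate or fibroblast-like cells, 80.0% in hepatocyte-like cells, and 19.6% and 16.1% in endothelial-like cells. Fragments of both receptors were found together in 208 of 330 Kupffer-like cells (library 1) and in 49 of 184 (library 2). Among thinned Kupffer-like cells of library 1, Lrp1 was found in 91.7% of the 108 cells with a Cd163 fragment and in 90.6% of the 192 cells without one. In library 2 the shares were 83.3% of 24 cells and 87.1% of 140 cells, and a difference in Lrp1 between cells with and without a Cd163 fragment was not detectable at this depth.

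**Figure D2:**
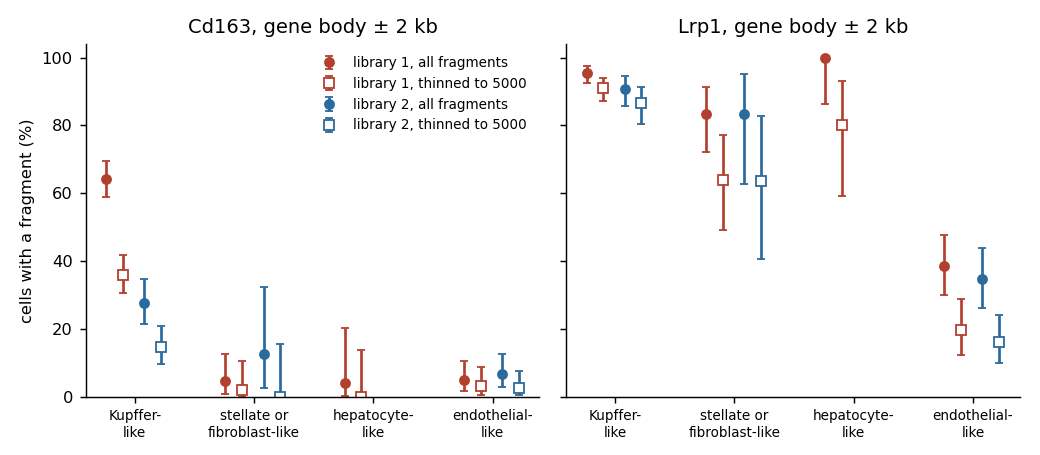
Percent of cells with at least 1 fragment in the gene body with 2 kb on both sides, by class and library, before (filled circles) and after (open squares) thinning to 5000 fragments per cell, with exact binomial 95% intervals. Kupffer-like cells had Cd163 in 64.2% of library 1 and 27.7% of library 2, and Lrp1 in over 90% of both before thinning.

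The 2 fullest tiles of the Cd163 region in Kupffer-like cells lay away from the gene start. Of the 77 tiles of 1 kb, each located by its centre, the fullest in Kupffer-like cells was 25.2 kb before the gene start, at the edge of the counted region, with 152 fragments in library 1 and 49 in library 2. Of these 201 fragments, 103 had their midpoint inside the region, and the next tile outward held 30 and 6. Whether the tile at the edge belongs to Cd163 was not tested. The second fullest tile was in the gene, 4.8 kb after its start, with 94 and 28 fragments. The tile that holds the gene start had 35 and 8 fragments, and a tile 14.8 kb into the gene, within the annotated lncRNA Gm52877, had 38 and 8. A tile 22.2 kb before the gene start had 29 and 4. In endothelial-like cells these 5 tiles held at most 3 fragments each in library 1 and 6 in library 2. The 300 bases of the promoter window printed above overlapped 29 and 6 fragments of Kupffer-like cells, and 1 and 0 of endothelial-like cells.

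Tiles were compared where both groups together had at least 20 fragments, a minimum that Kupffer-like cells alone could reach, so these counts describe filled tiles only. In library 1, 12 of 13 compared Cd163 tiles were higher in Kupffer-like than in endothelial-like cells by a fold of 2 or more and 0 were lower. Across the genome 37.5% of compared tiles were higher and 25% lower. In library 2, 2 of 2 were higher, where the background was 28.9% higher and 20.3% lower. The tile 4.8 kb into the gene had ratios of 5.08 (no upper bound; lower bound 2.17) and 2.39 (0.89 to 4.95) relative to the median tile. The tile 25.2 kb before the gene start had 2.97 (1.61 to 5.48) and 2.29 (1.17 to 3.91). It was also the fullest tile in stellate or fibroblast-like cells, with 7 and 3 fragments.

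**Figure D3:**
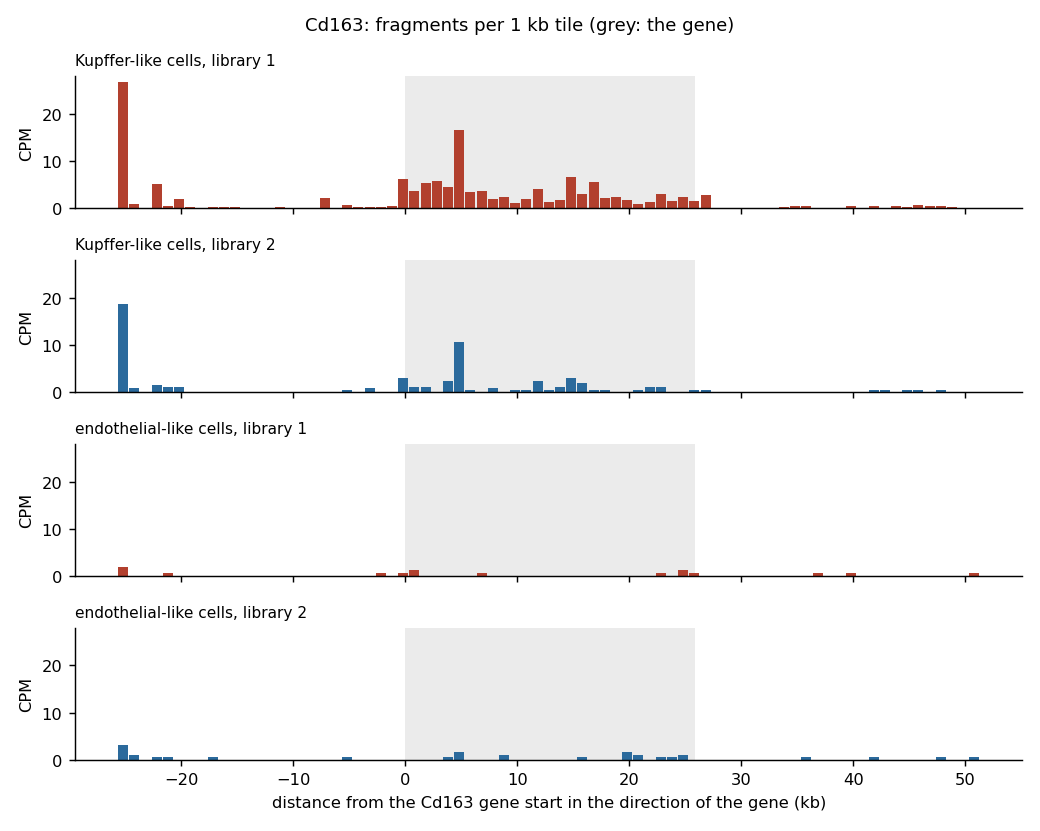
CPM in 1 kb tiles from 25 kb before to 25 kb after Cd163, by distance from the gene start along the gene, in Kupffer-like and endothelial-like cells of each library; the gene is grey. The fullest tiles of Kupffer-like cells lie 25.2 kb before the gene start and 4.8 kb after it in both libraries, and endothelial-like cells have few fragments throughout.

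Lrp1 had an open gene start and a block of filled tiles in the part of the gene nearest to it. Of its 134 tiles, the 4 fullest in Kupffer-like cells lay 16.6, 24.6 and 29.6 kb into the gene and at the gene start. They held 329, 290, 229 and 216 fragments in library 1 and 147, 128, 120 and 119 in library 2. The next tile, 20.6 kb into the gene, held 174 and 34. The tile at 24.6 kb overlaps the annotated lncRNA Gm16217, and those at 16.6 and 20.6 kb overlap Gm51820, whose fragments cannot be told apart from those of Lrp1. In endothelial-like cells these 5 tiles held between 3 and 10 fragments in library 1 and between 1 and 15 in library 2. The printed promoter window overlapped 55 and 43 fragments of Kupffer-like cells, 10 and 3 of stellate or fibroblast-like cells, 1 of hepatocyte-like cells, and 1 and 3 of endothelial-like cells.

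In library 1, 36 of 50 compared Lrp1 tiles were higher in Kupffer-like than in endothelial-like cells by a fold of 2 or more and 4 were lower. In library 2, 17 of 20 were higher and 1 was lower, against the same background shares of tiles as for Cd163. The tile 24.6 kb into the gene had ratios of 3.90 (2.56 to 6.40) and 3.12 (2.22 to 4.35), and the tile at the gene start 1.89 (1.05 to 3.04) and 2.31 (1.57 to 3.23). Summed over both libraries, the fullest tiles of endothelial-like cells in the region lay at the neighbouring genes, 21.4 and 22.4 kb before the Lrp1 start at Stat6, with 60 and 32 fragments and with 20 and 9, and at Shmt2 beyond the other end, with 13 and 15. In library 2 alone the Lrp1 gene start held as many endothelial-like fragments, 15, as the Shmt2 tile. The Stat6 tile with 60 and 32 endothelial-like fragments held 141 and 66 Kupffer-like fragments, and its ratios were -1.25 (-1.69 to -0.78) and 0.39 (-0.22 to 1.06).

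The cell classes filled different tiles within Lrp1. Stellate or fibroblast-like cells had most fragments 20.6 kb into the gene, 36 and 14, ahead of the tile at 16.6 kb with 32 and 14 and the gene start with 29 and 8. At 24.6 and 29.6 kb, where Kupffer-like cells were among their fullest, they held 9 and 5 fragments and 5 and 3 fragments. The tile 49.6 kb into the gene held 14 and 8 fragments of stellate or fibroblast-like cells and 8 and 0 of Kupffer-like cells, although Kupffer-like cells were more numerous. Hepatocyte-like cells of library 1 had 20 fragments at the gene start, 16 in the tile before it and 15 at 43.6 kb, a tile with 10 and 4 Kupffer-like fragments. At 16.6 and 24.6 kb they had 1 and 5. The tiles at 49.6 and 43.6 kb were picked after their values were seen.

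**Figure D4:**
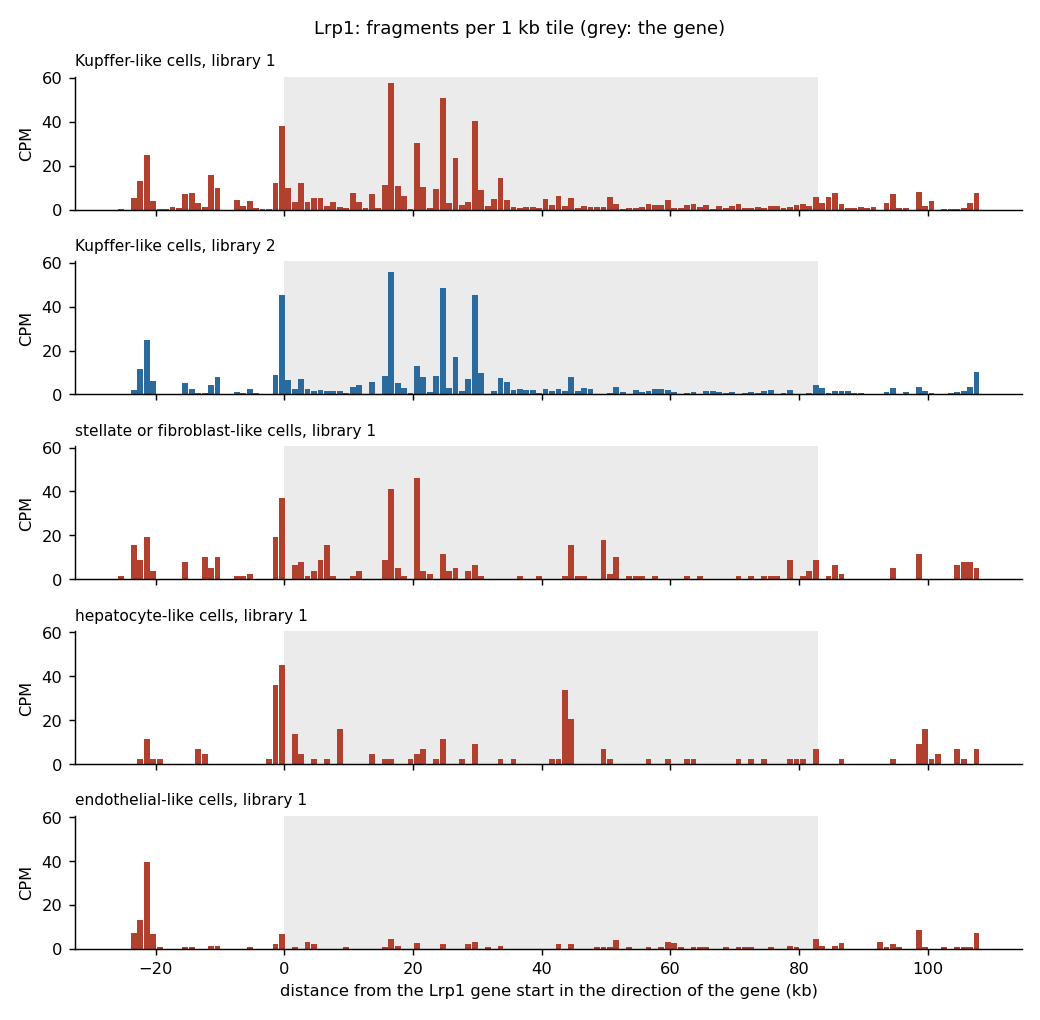
CPM in 1 kb tiles from 25 kb before to 25 kb after Lrp1, by distance from the gene start along the gene; the gene is grey. Kupffer-like cells of both libraries fill tiles 16.6, 24.6 and 29.6 kb into the gene, stellate or fibroblast-like cells those at 16.6 and 20.6 kb, hepatocyte-like cells the gene start and 43.6 kb, and endothelial-like cells mainly the neighbouring gene Stat6, 21.4 kb before the Lrp1 start.

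Between the libraries, the Cd163 level of Kupffer-like cells in the gene body with 2 kb on both sides differed by more than counting error. The Lrp1 ratio was small, and its interval included 0 under some settings and not under others. The log2 ratio of library 1 over library 2, relative to the median gene, was 1.37 (1.05 to 1.72) for Cd163, rank 179 of 15285 genes, and 0.08 (-0.02 to 0.18) for Lrp1. The median gene itself stood at 0.20 on this scale before centring, and the Lrp1 ratio was then 0.28 (0.18 to 0.38). With at least 3000 fragments in peaks it was 0.57 (0.49 to 0.66), and with marked doublets left out 0.33 (0.23 to 0.43). Among all genes 3.82% were higher in library 1 by a fold of 2 or more and 6.9% were lower. In 1 kb on each side of the gene start the Cd163 library ratio was 0.85 (-0.06 to 1.99), from 50 and 11 fragments. That value is under a fold of 2 and its interval includes 0. When each cell was classed by its own marker fragments, the Cd163 library ratio was 2.16 (1.19 to 3.58). In endothelial-like cells the Lrp1 ratio was -0.15 (-0.55 to 0.25), and Cd163 had too few fragments to compare. Of the 8 Kupffer markers, 0 passed a fold of 2 in either direction. Their ratios ran from 0.13 (-0.10 to 0.37) for C1qb, an interval that includes 0, to 0.86 (0.60 to 1.14) for Timd4 with a median of 0.47, and their summed levels were 802 and 505 CPM. Kupffer-like cells had a median of 73.9% of fragments in peaks in library 1 and 60.0% in library 2, and 5.95 and 63.4 local pile-ups of fragments per cell. The part of the markers, the share in peaks and the pile-ups in the Cd163 ratio was not tested beyond the masked value: with pile-ups masked, Cd163 had 99.4 and 36.7 CPM. The libraries are 1 per genotype, so genotype, animal, library and cluster cannot be told apart.

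The library difference of Cd163 was not even along the locus. The 2 fullest tiles together held 246 and 77 fragments, a ratio of 0.35 (-0.01 to 0.75) relative to the median gene. The other 26 tiles in the gene held 451 and 58, a ratio of 1.63 (1.25 to 2.06). Of these tiles, 0 were empty in library 1 against 7 in library 2. Kupffer-like cells had 5698459 fragments in library 1 and 2637747 in library 2, so empty tiles were not compared at equal depth. Tiles outside the gene held 124 and 21, a ratio of 1.22 (0.57 to 1.99). These groups of tiles were formed after their values were seen. The tile 2.8 kb after the gene start held 33 and 0 fragments, and the lower limit of its log2 ratio relative to the median tile was 1.53. At 6.8 kb the counts were 21 and 0, with a lower limit of 0.83, under a fold of 2. At 16.8 kb they were 32 and 1, a log2 ratio of 2.89 (0.87 to 8.80) relative to the median tile. Of 15 compared tiles, 7 were higher in library 1 by a fold of 2 or more and 0 lower, where 13.3% of all compared tiles were higher and 7.98% lower. Library 1 alone could reach the minimum of 20 fragments, as in the tiles just named, so this count describes filled tiles only. With at least 50 fragments, 0 of 2 compared tiles were higher.

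For Lrp1 the 4 fullest tiles held 1064 and 514 fragments, a ratio of -0.27 (-0.42 to -0.11), and the other 80 tiles in the gene 1748 and 569, a ratio of 0.30 (0.17 to 0.44). As at Cd163, the other tiles in the gene together had a higher library ratio than the fullest ones, and they include filled tiles such as that at 20.6 kb. Of 53 compared tiles, 8 were higher and 3 lower in library 1 by a fold of 2 or more. These counts were near the 13.3% higher and 7.98% lower among all compared tiles, and library 1 alone could reach the minimum here too. The tile at 20.6 kb, with 174 and 34 fragments, had a ratio of 0.79 (0.27 to 1.38) relative to the median tile, while the gene start had -0.69 (-1.02 to -0.36). The highest tile ratio, 2.24 (0.57 to 5.64), came from 34 and 2 fragments 50.6 kb into the gene, and the lowest, -1.55 (-2.55 to -0.55), from 19 and 19 fragments at 28.6 kb.

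**Figure D5:**
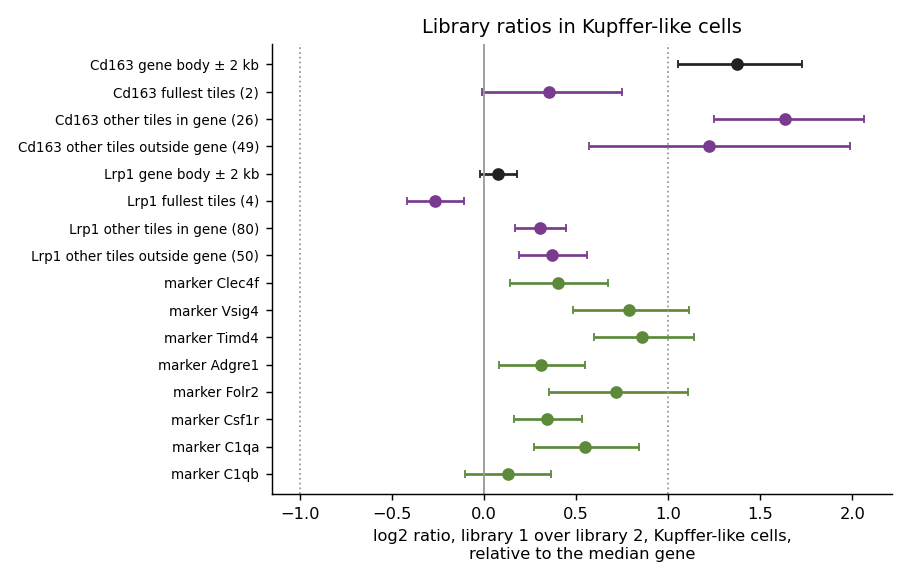
Log2 ratio of library 1 over library 2 in Kupffer-like cells, relative to the median gene, with 95% counting intervals, for the gene windows (black), groups of 1 kb tiles (purple, number of tiles in brackets) and the Kupffer markers (green); dotted lines mark a fold of 2. Cd163 is at 1.37 as a whole, 0.35 in its 2 fullest tiles and 1.63 in the other tiles of the gene, while Lrp1 is at 0.08 and the markers between 0.13 and 0.86.

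Other genes of these pathways were taken from 4 gene lists. Of 12 hemoglobin and hemopexin partners, 10 could be compared between Kupffer-like and endothelial-like cells, of which 3 were higher by a fold of 2 or more and 0 lower in library 1 (median ratio 0.79) and 6 higher and 0 lower in library 2 (median 1.16). The median of all genes is 0 by construction, and of all genes 12.4% were higher in library 1 and 10.3% in library 2. In library 1 the 3 were Slc40a1, Blvra and Ftl1, a ferritin light chain gene that was named after its values were seen. Slc40a1, the iron exporter ferroportin, had ratios of 1.65 (1.27 to 2.07) and 1.97 (1.51 to 2.48). Blvra, which reduces biliverdin to bilirubin, had 1.50 (1.07 to 1.99) and 1.20 (0.74 to 1.70). At the low end were Slc48a1, a transporter of heme out of endosomes, with 0.32 (-0.12 to 0.80) and 0.58 (0.13 to 1.05), and Tnfrsf12a, the receptor of the CD163 ligand TWEAK, with -0.05 (-0.41 to 0.33) and 0.38 (-0.12 to 0.91). Between the libraries 0 of 10 were higher and 1 was lower in library 1 (median -0.24), where 3.82% of all genes were higher and 6.9% lower. That gene was Hmox1, the heme-degrading oxygenase, at -1.23 (-1.45 to -1.01), opposite in sign to Cd163, and it was named after its values were seen.

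Of 12 Lrp1 partners and ligands, 11 could be compared in library 1 and 10 in library 2. In library 1, 1 was higher in Kupffer-like than in endothelial-like cells, 0 were lower and the median was -0.03, a count near the 12.4% of all genes that were higher. The higher one was Thbs1, a thrombospondin that binds LRP1, at 3.19 (1.82 to 5.70). In library 2, 0 were higher, Plat alone was lower and the median was 0.02, where 10.3% of all genes were higher and 10.8% lower. In libraries 1 and 2, Lrpap1, the chaperone of LRP1, had ratios of 0.31 (-0.13 to 0.80) and 0.12 (-0.41 to 0.67). The adaptor gene Shc1 had -0.60 (-0.84 to -0.36) and -0.54 (-0.85 to -0.24), and Plat, the tissue plasminogen activator cleared by LRP1, -0.98 (-1.63 to -0.28) and -2.37 (-3.21 to -1.65). Between the libraries, 1 of 12 was higher in library 1 in Kupffer-like cells, Thbs1 at 1.15 (0.50 to 1.92). Lower was 1, the protease inhibitor gene Pzp at -1.26 (-2.09 to -0.43), and the median was 0.20. Over all genes 3.82% were higher and 6.9% lower in that comparison. Thbs1 and Pzp were named after their values were seen.

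Among relatives of LRP1, 2 of 10 compared genes of the LDL receptor family were higher in Kupffer-like than in endothelial-like cells in library 1 (median 0.15) and 1 of 10 in library 2 (median 0.26), with 0 lower in either. Over all genes 12.4% and 10.3% were higher, so these counts were near the background. Lrp4, a co-receptor for agrin, had 1.43 (1.05 to 1.86) and 1.78 (1.26 to 2.38), and the sorting receptor gene Sorl1 had 1.03 (0.53 to 1.62) and 0.30 (-0.21 to 0.83). Lrp5, a Wnt co-receptor, had -0.73 (-0.91 to -0.54) and 0.44 (0.15 to 0.73), and Lrp8, a reelin receptor, -0.03 (-0.52 to 0.51) and -0.82 (-1.23 to -0.41). Between the libraries 0 of 10 were higher and 2 lower in library 1 (median 0.06), where 3.82% of all genes were higher and 6.9% lower. The 2 lower genes were Lrp1b at -1.75 (-1.91 to -1.59) and the epithelial receptor gene Lrp2 at -1.71 (-2.08 to -1.34), named after their values were seen.

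Among genes with SRCR domains like CD163, 3 of 7 compared were higher in Kupffer-like than in endothelial-like cells and 1 was lower in library 1 (median 0.94), and 4 of 7 were higher and 0 lower in library 2 (median 1.28). Over all genes 12.4% were higher and 9.4% lower in library 1, and 10.3% and 10.8% in library 2. Besides the genes named next, these were Msr1 and Cd6 in library 1 and Cd6 and Ssc5d in library 2. Cd5l, a secreted macrophage protein, had 4.10 (3.19 to 5.40) and 2.28 (1.69 to 2.97), and the scavenger receptor gene Marco 0.94 (0.36 to 1.63) and 3.13 (2.52 to 3.88). Lgals3bp had -0.72 (-1.11 to -0.31) and -0.01 (-0.54 to 0.53), and Dmbt1 -1.23 (-1.84 to -0.59) and 0.31 (-0.29 to 0.94). Between the libraries 1 of 8 was higher in library 1, the lymphocyte gene Cd5, and 2 were lower (median -0.25). Over all genes 3.82% were higher and 6.9% lower in that comparison. Marco was lower, at -1.86 (-2.14 to -1.59), Dmbt1 at -1.45 (-1.99 to -0.92), and Cd5l was at 0.32 (0.07 to 0.58). Msr1, Cd6, Ssc5d and Cd5 were named after their values were seen.

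Patterns over the 7 combinations of class and library were compared between genes by Pearson's r of log2 (CPM + 1), as a description, since all genes share the same libraries and depths. Among 12961 genes, those most like Cd163 were Sgpl1 (r = 0.996), Lacc1 (0.993), Atp9b (0.987), the Kupffer marker Vsig4 (0.985) and Ptk2b (0.984). Vsig4 had 79.5 and 39.8 CPM in Kupffer-like cells and 7.26 and 6.97 CPM in endothelial-like cells. A high r does not mean an equal size of difference. Sgpl1 had 125 and 87.2 CPM in Kupffer-like cells against 46.2 and 47.7 CPM in endothelial-like cells. For Atp9b the levels were 92.5 and 78.1 CPM against 61.4 and 64.3 CPM. Those most like Lrp1 were Trim36 (r = 0.993), Fgd4 (0.984), Gm46752 (0.981), Ttyh2 (0.979) and Pecr (0.978). Trim36 had 73.9 and 54.2 CPM in Kupffer-like cells, 48.7 and 35.4 CPM in stellate or fibroblast-like cells, 42.8 CPM in hepatocyte-like cells, and 15.2 and 17.1 CPM in endothelial-like cells. Between Cd163 and Lrp1 r was 0.58 over the 7 points, which differ in that Lrp1 is open in stellate or fibroblast-like and hepatocyte-like cells and Cd163 is not.

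Short fragments made up a smaller share at Cd163 than at Lrp1 in Kupffer-like cells of library 1, while in library 2 the intervals of both receptors overlapped. In Kupffer-like cells 59.4% (55.2 to 63.5%) of Cd163 fragments were shorter than 150 bases in library 1 and 72.4% (61.8 to 81.5%) in library 2. For Lrp1 the shares were 65.7% (63.9 to 67.4%) and 66.5% (63.6 to 69.2%), and for all fragments of these cells 59.8% and 62.7%. The short share of Cd163 in library 1 could not be told apart from that of all fragments, while that of Lrp1 was higher in both libraries.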

How the data were processed

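The deposited fragment table gives counts of read pairs per unique fragment, per the file headers not normalized, and the deposited per-barcode table gives counts of fragments and the authors' cell calls. Signac 0.2.4, Seurat, R 3.6.1, Cell Ranger ATAC 1.2.0, Cell Ranger and the build GRCm38.p5 are named in the submitters' processing notes; other steps are not given in the sources used here. Cells had at least 1000 fragments in peaks, 15% in peaks and at most 5% blacklisted. Bins of 5 kb seen in 10 cells were weighted by TF-IDF, reduced to 30 components (scikit-learn 1.9.0; the first left out) and clustered (20 neighbours, Leiden resolution 0.5, leidenalg 0.10.2). Marker scores were taken within each library (108 genes, all 108 matched). Clusters needed a score of 0.25, a lead of 0.2 and 3 markers in 10% of cells. The weighting and the scoring were set after seeing how clearly markers separated clusters. Marked doublets (87 and 92 cells) were kept. Each fragment was counted once where it overlapped a window, and levels were divided by all fragments of the class. Gene positions are RefSeq's in GRCm38.p6, which shares primary coordinates with the files. Intervals are exact Poisson, Clopper-Pearson or conditional binomial; ratios add 0.5 fragments. Ratios were run on simulated counts drawn independently. In library 2, 12.1% of fragments of filtered cells lay in pile-ups, which the simulation lacks, so it does not test the intervals for such data. Members and gene lists were chosen with earlier results of these data known. The rule for list genes took those with the 2 largest and 2 smallest mean ratios. Outside this rule, Ftl1, Hmox1, Thbs1, Pzp, Lrp1b, Lrp2, Msr1, Cd6, Ssc5d and Cd5 were named after their values were seen, as genes past a fold of 2. The rule for tiles took the fullest per class and the highest and lowest library ratios. A gene that the list rule names is not reported here. Pile-ups were 20 kb stretches where a single cell held 10 or more fragments and 10 times the expected number. No p-value is given, with 1 library per genotype.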

Additional observations from a re-analysis of the deposited data

Results flagged for a closer look

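Fragments of both receptors were also found in barcodes that the authors did not call cells, data that the comparisons do not use and for which no control level could be set, since no barcode suffix is tied to a genotype. Cd163 had 63 such fragments in library 1 (32.9 CPM; 25.3 to 42.1) and 159 in library 2 (16.8 CPM; 14.3 to 19.6), against 63.6 and 21.2 CPM in called cells. Lrp1 had 434 in library 1 (227 CPM; 206 to 249) and 832 in library 2 (87.8 CPM; 81.9 to 93.9), against 385 and 212 CPM in called cells. All 4 values are above the limit of 3 fragments that a count of 0 allows. These barcodes held 16.8% of all fragments in library 1 and 43.8% in library 2, but 9.46% and 38.1% of those of Cd163 and 10.6% and 24.3% of those of Lrp1.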

How the results depend on the processing

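No direction of a receptor's ratio between Kupffer-like and endothelial-like cells reversed under any setting run. Of 226 alternative values over 28 results, 166 stayed within the counting interval of the main value, or within 1.5 times the main count. The cause of the other 60 was not tested. Part of the 166 was fixed in advance. Scaling by fragments near transcription start sites cancels in centred ratios. That scaling, and counting insertions or read pairs, cannot change the share of cells with a fragment. Ratios are log2 values. With 1 kb on each side of the gene start in place of the gene body, Cd163 ratios between Kupffer-like and endothelial-like cells were 2.57 in library 1 and 4.05 in library 2, from a few fragments, and library ratios of 0.85 for Cd163 and -0.27 for Lrp1 in Kupffer-like cells. The shares of Kupffer-like cells of libraries 1 and 2 with a fragment there were 12.4% and 5.98% for Cd163 and 51.5% and 47.3% for Lrp1, in a smaller window. With each cell classed by its own marker fragments, Cd163 had ratios of 2.98 and 0.80 and a library ratio of 2.16, and Lrp1 a ratio of 2.44 in library 2 and a library ratio of 0.19. The shares were then 18.2% for Cd163 in library 2, and 100% and 95.5% for Lrp1. With 25 kb on both sides of the gene, where neighbouring genes are counted too, Lrp1 had ratios of 2.00 and 2.05, and the Cd163 shares were 72.7% and 38.6%. Thinned to 5000 fragments, the Cd163 shares were 36.0% and 14.6%, the Lrp1 share of library 1 was 91.0% and the Lrp1 ratio of library 2 was 3.34. With at least 3000 fragments in peaks, Lrp1 had a ratio of 2.18 in library 2 and a library ratio of 0.57, its share in library 1 was 98.4%, and the Cd163 share in library 2 was 35.5%. With marked doublets left out, Lrp1 had a ratio of 3.60 in library 1, a library ratio of 0.33 and a share of 84.7% in library 2. Clustering on 20 kb bins gave Lrp1 a ratio of 3.29 in library 2 and shares of 97.7% and 96.7%. Leiden resolution 1 gave Lrp1 shares of 97.7% and 96.5%, and keeping the bins of both loci 97.7% and 98.3%. Counting read pairs gave Lrp1 a library ratio of 0.19. Settings chosen after seeing the data were no centring on the median gene (Lrp1 library ratio 0.28), no centring with scaling by fragments near transcription start sites (0.18), and Kupffer-like cells of clusters 2 and 3 alone (shares in library 1 of 77.5% for Cd163 and 100% for Lrp1). The median gene was at 0.20 between the libraries, and centring removed that shift. No such ratio of library 2 was computed without marked doublets, or for cells over 50% in peaks, because 1 endothelial-like cell remained.

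With at least 50 fragments per tile, Kupffer-like over endothelial-like cells had 2 Cd163 tiles higher in library 1 and 1 in library 2, and 17 and 5 Lrp1 tiles higher with 0 lower in either library. Between the libraries 0 Cd163 tiles and 2 Lrp1 tiles were higher, and 0 Lrp1 tiles were lower. Tiles shifted by 500 bp gave 2 Lrp1 tiles lower in library 1. With no minimum per gene, genes higher and lower in Kupffer-like than in endothelial-like cells numbered 2915 and 2776 in library 1 and 3285 and 3250 in library 2. Between the libraries they numbered 1533 higher and 2990 lower, and with pile-ups masked 596 were lower. The Cd163 ratios rest on few fragments, 87 in Kupffer-like cells of library 2 and 9 in endothelial-like cells of library 1.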
